A study of Bos taurus with 2 samples.

Results

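The genes described here encode 10 amino acid transporters of the mammary gland: SLC7A5, SLC3A2, SLC7A1, SLC7A8, SLC1A1, SLC1A5, SLC38A2, SLC38A1, SLC36A1 and SLC7A11. Probes were taken by name: every non-control probe whose gene name in the array files is one of these symbols was used, whatever its signal. That gave 17 probes for 9 of the 10 genes, out of 43652 probes and 15821 named genes in all. No probe carried the name SLC36A1, a proton-coupled amino acid transporter of the lysosome, or one of its RefSeq accessions, so that gene was not analysed here. Of the 9 genes, 5 had 1 probe and 4 had several.

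RNA came from the whey of raw milk of Holstein cows, and the sources used here do not give the cows' age, lactation stage or treatment, or how whey was made. Whey was spun at 10000 g and 4 °C for 90 min. The pellet, washed in 2 further spins in phosphate buffer, is the fraction the submitters call exosome, and the liquid above it is the whey supernatant. The force is given as labelled. The submitters name the step an ultracentrifugation, for which 10000 g is low, so the true force and the kind of vesicles pelleted are uncertain. RNA of 3 milk samples was mixed equally within each fraction, and 100 ng was labelled with the dye Cy3 for 1 array per fraction. There are therefore 2 arrays and no replicates, no test was run, and every difference is one between these 2 arrays.

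Milk-secreting cells of the mammary gland build caseins and whey proteins from amino acids that they take up from blood. Uptake runs through carriers of several families. Heteromeric exchangers pair a light chain such as SLC7A5 with the heavy chain SLC3A2, which brings the light chain to the cell membrane. Sodium-coupled carriers such as SLC38A2 load the cell with small neutral amino acids and glutamine. The heteromeric exchangers then trade these for essential amino acids such as leucine. SLC1A5 is sodium-coupled too but is itself an exchanger of neutral amino acids. Leucine and other amino acids activate the mTORC1 kinase, and a shortage of amino acids activates the kinase GCN2 (gene EIF2AK4) and the transcription factor ATF4, which raises transcription of many of these carriers.

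The 17 probes are 60 bases long, and 11 of them are shown whole or in part because the results turn on them. Sequences run 5′ to 3′ as printed on the array, and the number after each gene is the base of the transcript at which the probe starts. Capitals mark AATAAA, the signal that precedes the poly(A) tail. The first group holds probes shown whole: 4 whose coordinates in the array's genome build, Btau_3.1, span more than 60 bases and so cross an intron, and the SLC7A5 probe nearest to the 5′ end. The SLC3A2 probe at 702 lies at chr29:42881950-42882394 (plus strand), the SLC1A1 probe at 1143 at chr8:42136999-42143179 (minus), the SLC38A1 probe at chr5:37190090-37191569 (plus), the SLC7A11 probe at chr17:21052985-21062384 (plus) and the SLC7A5 probe at 919 at chr18:12570135-12570194 (minus).
SLC3A2 702: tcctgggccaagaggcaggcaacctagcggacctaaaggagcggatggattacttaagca
SLC1A1 1143: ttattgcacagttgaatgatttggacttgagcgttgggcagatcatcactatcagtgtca
SLC38A1 414: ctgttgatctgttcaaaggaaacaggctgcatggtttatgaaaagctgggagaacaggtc
SLC7A11 1444: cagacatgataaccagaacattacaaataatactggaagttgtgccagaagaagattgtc
SLC7A5 919: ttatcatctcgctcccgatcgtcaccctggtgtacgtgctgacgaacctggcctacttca

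The second group holds a stretch of 30 bases from each of 6 further probes. The coordinates are those of the whole probe: chr29:42887554-42887613 (plus) for SLC3A2, chr18:53657682-53657741 (minus) for SLC1A5, chr18:12563377-12563436 (minus) for SLC7A5, chr10:22025578-22025637 (plus) for SLC7A8, and chr5:37075751-37075809 and chr5:37076261-37076320 (both plus) for SLC38A2. Whether a probe lies in coding or untranslated sequence was not analysed here.
SLC3A2 1979: tttctggtttcaAATAAAagtcactcctgc
SLC1A5 2815: gatgtttataacAATAAAactgtcagtttg
SLC7A5 3958: ggggtaatttgttttttaagaattggaatt
SLC7A8 1736: ccaaagatctagcctcctctcaccccaagg
SLC38A2 3593: gtgaaaccaatggtccatttttgtttgttc
SLC38A2 4103: accaatgttaattatagaacagcattaatc

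Values are the scanner software's processed signals in arbitrary units, after background subtraction within an array and before any scaling between arrays, given as signal ± the software's own error for the spot. Detection means the software's flag for a spot well above background, and 1 such probe sufficed for a gene. The dimmest such spot read 11.3 in the exosome pellet against 9.04 in the supernatant. A gene detected in the exosome pellet alone has a lower bound, its exosome signal over the supernatant's 9.04, written as at least N-fold and averaged on the log2 scale over its detected probes. Probes bind with different strength, so the signal of 1 probe is not set against that of another as an amount of RNA.

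Transcripts of 6 of the 9 transporters were detected in the exosome pellet: SLC7A5, SLC3A2, SLC7A8, SLC1A1, SLC1A5 and SLC38A2. In the supernatant SLC7A8 was detected and the other 8 were not. SLC7A1, SLC38A1 and SLC7A11 were well above background on neither array. The 6 of 9 compare with 69.2% of all named genes detected in the exosome pellet, and the 1 of 9 with 22.8% in the supernatant. Detection in the exosome pellet alone held for 5 of the 9 against 47.4% of all named genes, and detection on neither array for 3 against 29.8%. Among probes, 11 of 17 were detected in the exosome pellet against 58.5% of all probes, and 1 of 17 in the supernatant against 13.1%. With 9 genes, shares this close to the background are not a result about the transporters. In bulk RNA, fewer vesicles or cells of a kind and less RNA in each cannot be told apart.

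**Figure D1:**
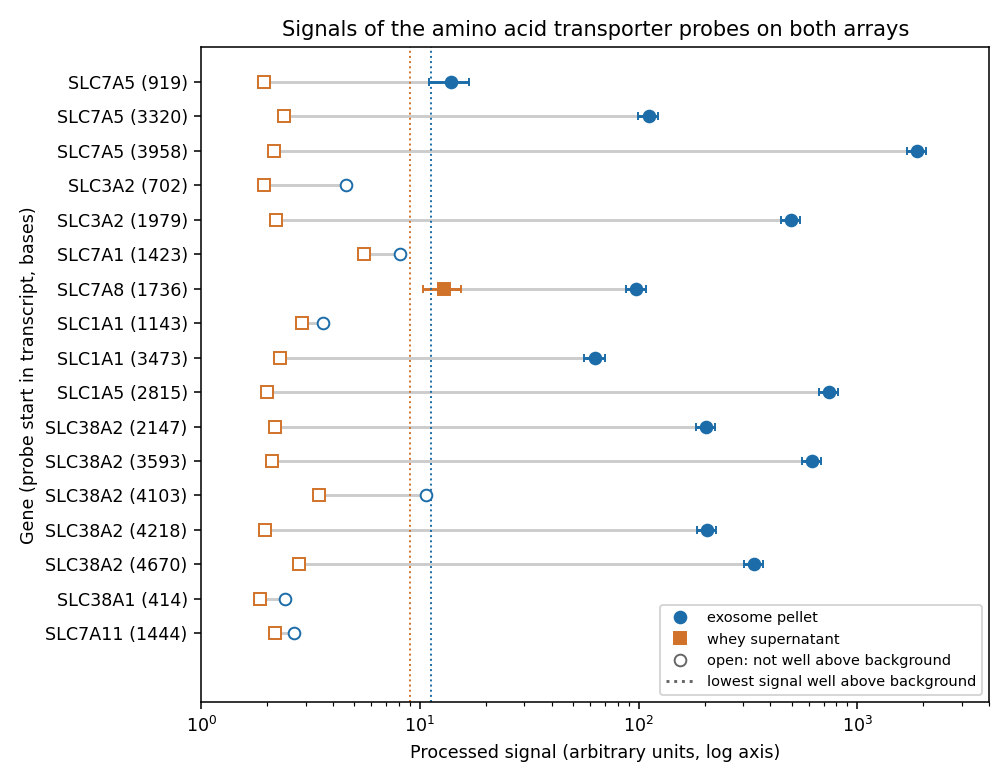
Processed signal (log axis, arbitrary units) of each of the 17 probes in the exosome pellet (circles) and the whey supernatant (squares), with the scanner software's error as bars on filled symbols. Open symbols were not well above background and dotted lines mark the lowest signal with that call on each array; SLC7A8 has the one filled square, and 11 probes have filled circles.

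Before scaling, the arrays as a whole differed in brightness, and this bears on every difference given here. The median over the 3376 genes measured on both arrays was 3.50 (log2), an 11.3-fold brighter exosome array, and 8 spike-in probes, which report RNA added during labelling, had a median of 2.27. Scaling each array to its 75th percentile takes 5.56 off every difference. Probes printed on 4 spots gave an SD between spots of 0.18 (log2, 9 probes), and different probes of a gene an SD of 1.71 (523 genes). No probe of the transporters was printed more than once.

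SLC7A5 (LAT1), the light chain that carries leucine and other large neutral amino acids, was detected in the exosome pellet by all 3 of its probes and in the supernatant by none. The probe starting at base 919 read 13.9 ± 2.92 in the exosome pellet against 1.94 ± 1.93 in the supernatant. At base 3320 the signals were 111 ± 11.5 and 2.39 ± 2.39, and at base 3958 they were 1873 ± 187 and 2.16 ± 2.15. All 3 supernatant signals lay below the detection limit, and the exosome signals lay above theirs, at 919 by less than the error of the spot. The bounds per probe were at least 1.54-fold, 12.3-fold and 207-fold, and the gene's bound was at least 15.7-fold. On the log2 scale that is 3.98, or 0.48 above the median gene, and after 75th percentile scaling no fold can be given. The 0.48 averages probe bounds of -2.88, 0.12 and 4.20 relative to the median gene, and with normexp background correction it was -0.01.

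SLC3A2 (4F2hc, CD98), the heavy chain that SLC7A5, SLC7A8 and SLC7A11 share, was detected in the exosome pellet by 1 of 2 probes. The probe at base 1979, which holds AATAAA, read 498 ± 49.9 in the exosome pellet against 2.19 ± 2.18 in the supernatant, a bound of at least 55.1-fold. The probe at base 702 read 4.58 ± 2.46 and 1.94 ± 1.94 and was detected on neither array. The gene's bound of 5.79 (log2) lay 2.29 above the median gene, and after 75th percentile scaling it was at least 1.17-fold, with no fold left after quantile normalization or under a weaker or stricter filter on dim probes. The heavy chain and its light chain SLC7A5 were both detected in the exosome pellet alone, as were 47.4% of all named genes. Its light chain SLC7A8 was detected on both arrays and SLC7A11 on neither.

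SLC7A8 (LAT2), a light chain for neutral amino acids of small and large size, was the one member measured on both arrays. Its single probe read 97.4 ± 10.1 in the exosome pellet against 12.8 ± 2.50 in the supernatant. The supernatant signal lay above the lowest detected signal of 9.04 by more than the error of the spot. Unscaled, the exosome signal was 7.58-fold higher, a difference of 2.92 (log2) with an error of 0.32 from the errors of both spots. On this scale the exosome pellet was higher by 2-fold or more for 83.3% of all such genes.

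The direction for SLC7A8 turned with the scaling. After 75th percentile scaling the difference was -2.64, 6.24-fold higher in the supernatant, and 63.6% of all measured genes were higher there by 2-fold or more. With scaling to the spike-in probes it was 0.65, to the array medians -0.57, and with normexp background correction -1.20. Relative to the median gene it stood at -0.58, within 2-fold of it, where 26% of measured genes lie. The quartiles of measured genes were 1.66 and 5.65 unscaled, and SLC7A8 lay between them.

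**Figure D2:**
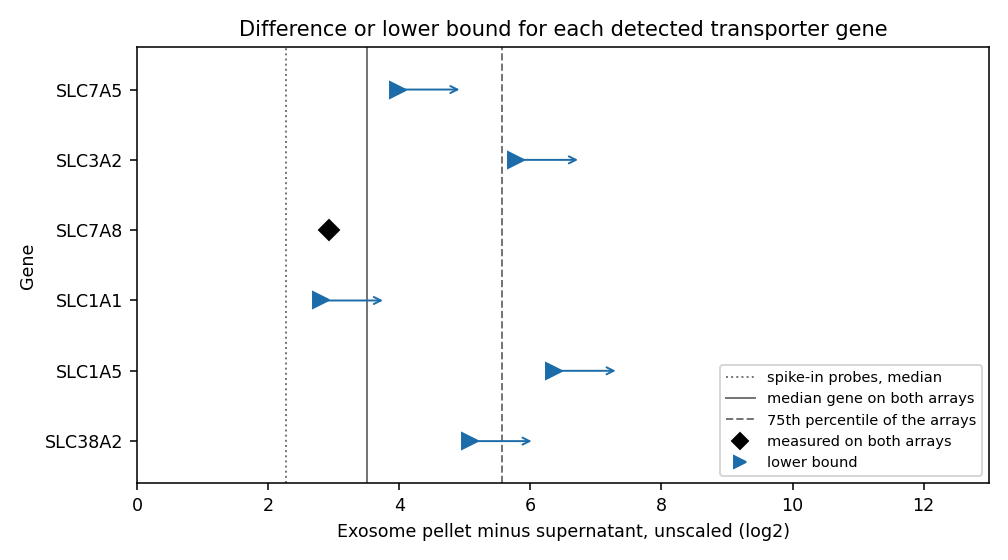
Exosome pellet minus supernatant before scaling (log2) for the 6 transporter genes detected in the exosome pellet; the diamond is SLC7A8, measured on both arrays at 2.92, and triangles are lower bounds, whose arrows show direction only. Vertical lines mark the median of the spike-in probes (2.27), the median gene (3.50) and the shift of 75th percentile scaling (5.56), and 2 of the 5 bounds, SLC3A2 and SLC1A5, lie above the last.

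SLC7A11 (xCT), the light chain that exchanges cystine for glutamate, read 2.65 ± 2.64 in the exosome pellet against 2.16 ± 2.16 in the supernatant. Its single probe, which crosses an intron, was at background on both arrays. SLC7A1 (CAT1), a carrier of arginine and lysine that needs no heavy chain, read 8.10 ± 2.86 and 5.52 ± 2.26. Neither signal was well above background, although the software's weaker flag, positive and significant, was set on both arrays. These are single-probe results, so an absent signal bounds what that probe found.

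The sodium-coupled carriers were detected in the exosome pellet except for SLC38A1. SLC1A5 (ASCT2), an exchanger of glutamine and other neutral amino acids, read 743 ± 74.3 in the exosome pellet against 1.998 ± 1.99 in the supernatant by its 1 probe, which holds AATAAA. That is at least 82.2-fold, 6.36 (log2), or 2.86 above the median gene. After 75th percentile scaling it was at least 1.74-fold, with no fold left under a stricter filter on dim probes. SLC1A1 (EAAT3), a carrier of glutamate and aspartate, read 63.4 ± 6.98 and 2.29 ± 2.29 by the probe at base 3473. Its bound was at least 7.01-fold, 2.81 (log2), which is below the median gene and leaves its side of that gene undetermined. The SLC1A1 probe at base 1143 of a separate transcript record read 3.61 ± 3.60 and 2.88 ± 2.87 and was detected on neither array.

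SLC38A2 (SNAT2), a sodium-coupled carrier of small neutral amino acids that responds to amino acid supply, was detected in the exosome pellet by 4 of 5 probes and in the supernatant by none. In the exosome pellet the probes starting at bases 2147, 3593, 4218 and 4670 read 204 ± 20.5, 618 ± 61.9, 205 ± 20.6 and 337 ± 33.9. In the supernatant the same probes read 2.17, 2.11, 1.96 and 2.78. The probe at base 4103, which lies between detected probes, read 10.7 ± 3.09 and 3.45 ± 2.30, below the lowest detected signal on each array. The 4 detected probes gave bounds from at least 22.5-fold to at least 68.4-fold, and the gene's bound was at least 33.8-fold. That is 5.08 on the log2 scale, 1.58 above the median gene, with no fold left after 75th percentile scaling. SLC38A1 (SNAT1), its close relative, read 2.42 ± 2.41 and 1.86 ± 1.85 by 1 probe and was detected on neither array.

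The bounds of the 5 transporters found in the exosome pellet alone follow their exosome signals, since the supernatant term is 9.04 for each probe, and their order is no order of the genes. Over the 7505 named genes detected in the exosome pellet alone, the median bound was 3.81 (log2, unscaled), with quartiles of 2.35 and 5.51. The bounds of SLC7A5, SLC1A1 and SLC38A2 lay between these quartiles, and those of SLC3A2 and SLC1A5 above the upper. The median gene used above is of genes measured on both arrays. All 16 undetected supernatant signals lay between 1.86 and 5.52, with a median of 2.17.

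The probes within a gene gave detection that went with their position in part. In SLC3A2 the detected probe lay nearer to the 3′ end, and in SLC38A2 the undetected probe had 2 detected probes on either side. Over all RefSeq transcripts with detected and undetected probes on the exosome array, the detected probe lay nearer to the 3′ end in 73.6% of 5573 pairs. Of the 4 transporter probes that cross an intron none was detected in the exosome pellet, and of the other 13, 11 were, against 52.6% and 60.7% of all probes of those kinds. AATAAA (searched as printed, on 1 strand) occurred in 2 of the 17 probes, those of SLC3A2 at 1979 and SLC1A5, and in 9.35% of all probes. Of all probes with it, 70.6% were detected in the exosome pellet, and of those without it 57.2%. The share of G and C ran from 31.7% to 55% over the 17 probes. The part of probe position in which genes were detected was not tested.

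**Figure D3:**
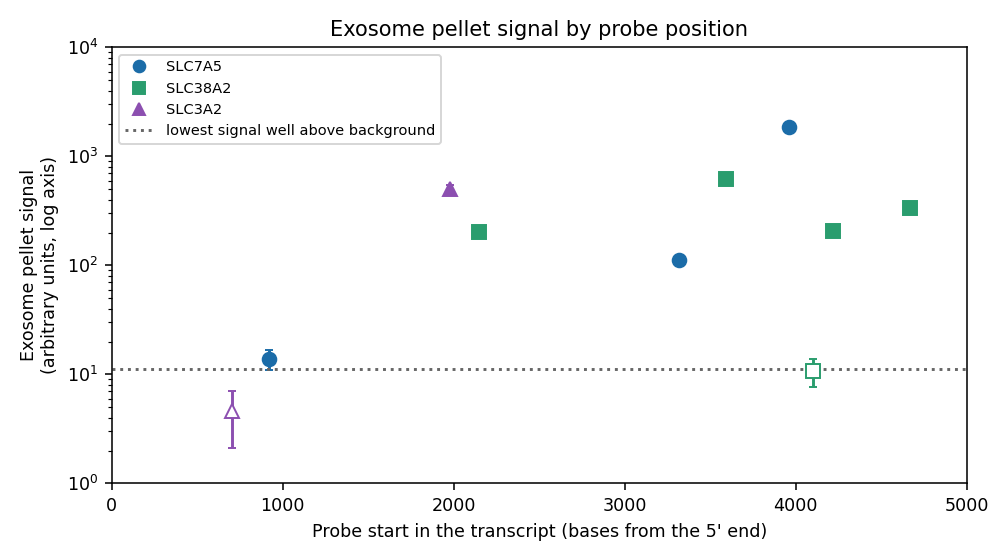
Exosome pellet signal (log axis, arbitrary units, with the scanner software's error) against the start of the probe in the transcript for the 3 transporters with several probes on 1 transcript record. Open symbols were not well above background: the SLC3A2 probe at base 702 and the SLC38A2 probe at base 4103.

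Other amino acid transporters were read in the same way. Of 37 on the array, 20 had a detected probe in the exosome pellet and 9 of these also in the supernatant, or 54.1% and 24.3% against 69.2% and 22.8% of named genes. Set against the median gene, 2 of those 9 were higher by 2-fold or more and 4 lower by as much, with a median of -0.56. Of all measured genes 37.2% were that much higher and 36.8% that much lower. With 9 genes, the counts of 2 and 4 are not a result about these transporters. The highest was SLC43A1 (LAT3), a heavy-chain-independent carrier of branched-chain amino acids. It read 1661 ± 166 in the exosome pellet against 11.5 ± 2.28 in the supernatant, 7.17 unscaled and 3.67 above the median gene. SLC36A4, a relative of SLC36A1, followed with 505 ± 50.6 and 19.5 ± 2.73, or 1.20 above the median gene. The lowest were SLC7A10 (Asc-1), at 35.2 ± 4.34 and 50.4 ± 5.39, and SLC7A14, at 14.6 ± 3.01 and 15.9 ± 2.66. These 2 read brighter in the supernatant before scaling too, by differences of -0.52 and -0.12, the second smaller than the errors of its spots.

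The light chains that pair with SLC3A2 were brought together after their values were seen. SLC7A5 was detected in the exosome pellet alone, SLC7A8, SLC7A7 and SLC7A10 on both arrays, and SLC7A6 and SLC7A11 on neither. Of the 15821 named genes, 3442 were detected on both arrays, 47.4% in the exosome pellet alone and 29.8% on neither. With 6 genes picked in this way, the split is not a result about the light chains. SLC7A7 (y+LAT1), a carrier of cationic and neutral amino acids, read 110 ± 11.3 and 27.4 ± 3.38 by the probe at base 313 and was at background by the probe at base 1971. All 4 probes of SLC7A6 (y+LAT2) were at background, with exosome signals of 2.60 to 3.37. SLC7A7's probe at base 313 holds a run of 5 G, and 39.9% of all probes with a run of 5 G or C were detected in the supernatant against 11.4% of those without. The part of such runs in its signal was not tested.

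Genes that sense amino acids and act on their supply were nearly all detected in the exosome pellet. Of 34 genes of mTORC1 and its lysosomal sensing, 32 reached detection in the exosome pellet and 15 of them in the supernatant as well, or 94.1% and 44.1% against 69.2% and 22.8% of all named genes. The median of the 15 was 2.51 relative to the median gene, with 10 higher than it by 2-fold or more and 3 lower, against 37.2% and 36.8% of all measured genes. RPS6, a ribosomal protein and target of this pathway, was highest at 6.70 and SESN2, a leucine sensor, lowest at -3.15. SESN2 rests on 1 of 2 probes, at 21.4 in the exosome pellet against 16.8 in the supernatant, and stands in the next list too. All 16 genes of the GCN2 and ATF4 response reached detection in the exosome pellet. The 4 that also did so in the supernatant, 25% and so near the share of all named genes, had a median of -0.30. ATF4 was highest of the 4, at 7.64 over the median gene from 1 of 3 probes, and SESN2 lowest. Of 11 genes of cystine and glutathione metabolism, 10 and 3 were detected, or 90.9% and 27.3%, the second again near that of all named genes. Relative to the median gene, TXNRD1 (thioredoxin reductase) stood at 3.72 and GSR (glutathione reductase) at 0.15, each from 1 of 2 probes. Of 3 peptide transporters, SLC15A4 was detected, by 1 of 4 probes on both arrays, at 1.02 relative to the median gene. The lists differ in size and no test compared them.

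**Figure D4:**
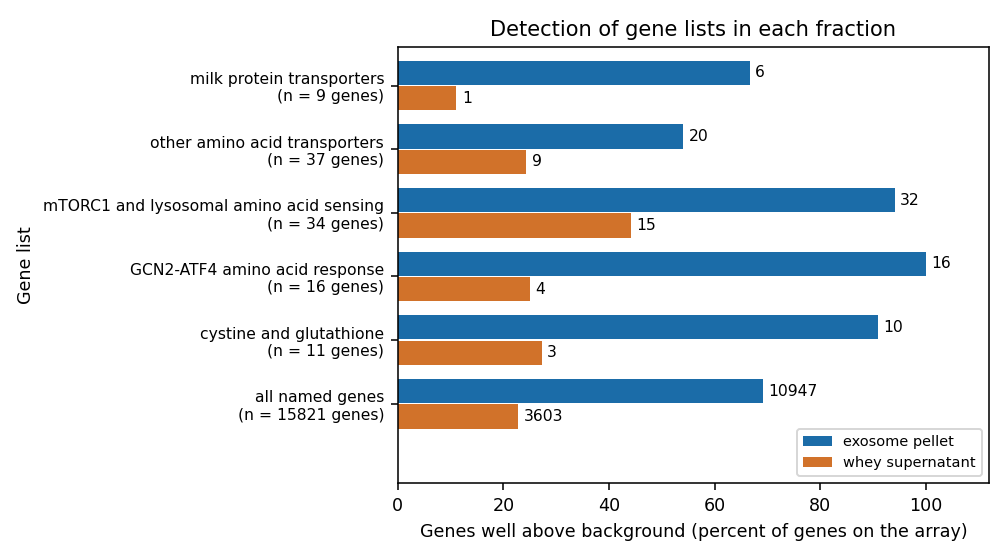
Percent of genes on the array that were well above background in the exosome pellet (upper bar) and the whey supernatant (lower bar) for each list, with the number of genes at each bar. The milk protein transporters stand at 6 and 1 of 9 genes, and all named genes at 10947 and 3603 of 15821.

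Markers of the fraction and of cell types in milk were read the same way, as RNA and not as protein. The exosome list includes MFGE8, BTN1A1 and XDH, genes of the milk fat globule membrane. The kind of vesicles pelleted was not tested. The exosome pellet held all 12 mammary epithelial markers above background and the supernatant 8 of them, and for exosome markers the counts were 13 and 7 of 13. The shares over all named genes, 69.2% and 22.8%, are the background for these counts. Myoepithelial markers gave 5 and 4 of 8, macrophage markers 4 and 4 of 5, neutrophil markers 3 and 1 of 6, lymphocyte markers 7 and 5 of 9, adipocyte and endothelial markers 2 and 1 of 8, and red cell markers 1 and 1 of 4. Shares in the exosome pellet lay below that background for the myoepithelial (62.5%), neutrophil (50%), adipocyte and endothelial (25%) and red cell (25%) lists. In the supernatant the neutrophil (16.7%) and the adipocyte and endothelial (12.5%) lists lay below it. Markers of more than 1 cell type were detected in both fractions, and their part in the transporter signals was not tested.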

How the data were processed

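The scanner output of both bovine arrays (Agilent, 1 colour) was made with Feature Extraction 10.7.3.1, per the submitters' processing notes, with coordinates in build Btau_3.1, per the file headers. The deposited intensity is the software's processed signal, from which it had removed background and spatial trend array by array, per the file headers. The deposited flags and the deposited p-values against background come from the same software; the p-values were not used. The log2 values in the authors' deposited table equal log2 of those signals within 0.001 for 43602 single-spot probes, with column medians of 4.81 and 1.32, so they are neither scaled nor centred. The sources used here give no other step of the authors.

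Control spots and 5 and 2 outlier spots were left out, and none was saturated. Signals of a probe's spots were averaged. Symbols are those of the files, updated for 2347 of 43652 probes through RefSeq accessions (assembly ARS-UCD2.0); 33380 probes had 1 symbol. None of the transporters' 17 changed. Probes detected on both arrays were averaged to give the difference of a gene. The main scaling subtracts each array's 75th percentile, a signal of 248 and 5.24. The latter lies below the detection limit of the supernatant array, so unscaled values stand first. Alternatives covered scaling, background correction (limma 3.58.1, normexp, offset 50), the filter on dim probes and the choice of probe. Named genes are all members, the 2 highest and 2 lowest other transporters measured on both arrays, and the highest and lowest of each further pathway list. Members and lists were chosen with earlier results of these data known. With 1 array per fraction there was no test, so the small number of arrays limits precision. The calculation was also run on simulated data in which all probes of a gene shared the same difference. The spread between probes of a gene seen here, an SD of 1.71 (log2), was thus not covered.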

Additional observations from a re-analysis of the deposited data

How the results depend on the processing

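No paired analysis was possible because each fraction has 1 array. With all probes of a gene required, the counts were 3 of 9 transporter genes for the exosome pellet and 1 for the supernatant (48.1% and 5.92% of all named genes), since SLC3A2, SLC1A1 and SLC38A2 each had an undetected probe. With the weaker flag the counts were 7 and 3, the 3 being SLC7A8, SLC7A1 and SLC38A2, against 84.2% and 66.3% of all named genes. With the stricter filter, at 4 times the lowest detected signal, the counts were 6 and 0 (57.0% and 8.44% of all named genes). No member was then measured on both arrays, so no median difference could be given. The median difference over members measured on both arrays rests on SLC7A8 alone, at -2.64 after 75th percentile scaling. It was -3.93 from 3 genes with the weaker flag, -0.57 with array medians and -1.20 with normexp, and it turned to 2.92 with no scaling and 0.65 with spike-in scaling. Quantile normalization (-2.74), the percentile over probes detected on both arrays (-2.53), outlier spots kept, the brightest probe per gene and the authors' deposited table moved it by less than the SD between spots. Without a filter the median of all 9 genes was -2.64, again that of SLC7A8. The bound of SLC7A5 after 75th percentile scaling, which gave no fold over its 3 probes, was at least 4.38-fold by its brightest probe, and those of SLC3A2 and SLC1A5 were -0.39 and 0.07 (log2) with quantile normalization and -1.78 and -1.20 with the stricter filter. With the weaker flag, which adds its second probe, that of SLC3A2 was -1.03. Signals close to background limit what the supernatant array can show.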

Other observations

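Runs of equal bases were counted in the probes of amino acid transporters detected in the supernatant. Of the 73 probes of the other amino acid transporters, 5 hold a run of at least 5 G or 5 C, and 3 of these 5 were detected in the supernatant, those of SLC6A9 (glycine transporter GLYT1), SLC38A3 (SNAT3) and SLC7A7. Of the other 68 probes 7 were, or 10.3%. Over all probes on the array, 39.9% of those with such a run were detected in the supernatant and 11.4% of those without. Among the 17 probes of the milk protein transporters, 1 holds such a run, the SLC3A2 probe at base 1979, and it read 2.19 in the supernatant, at background. The SLC7A8 probe, the one detected there, holds no run longer than 4 equal C and 2 equal G. The SLC7A10 and SLC7A14 probes, the 2 brighter in the supernatant before scaling, hold none of 5 either. The part of such runs in the supernatant signal was not tested, and these probes were picked out after their values were seen.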
